A study of Homo sapiens with 6 samples.

Results

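The genes of respiratory complexes I, III, IV and V and of their named assembly factors were followed in Kasumi-1 cells after homoharringtonine (HHT) or vehicle. Members were taken by symbol: genes starting NDUFA, NDUFB, NDUFC, NDUFS, NDUFV, NDUFAF, UQCR, UQCC, ATP5 or COX with a digit, and CYC1, each read from a probe set annotated to 1 gene. Of 107 such symbols, 2 pseudogenes (ATP5MC2P1 and COX6A1P1) and 4 long non-coding RNA genes were left out of the counts, which left 101 of the 19775 genes that had a probe set of their own. These 101 genes had 196 of the 41091 probe sets annotated to 1 gene. The 40% of probe sets with the lowest mean over all arrays, below a log2 signal of 4.80, were not tested, and 96 of the 101 members passed. The genes not tested for that reason were ATP5MF, COX6B2, COX7A1, COX7B2 and COX8C. Core subunits such as NDUFS8 and UQCRFS1 had no probe set listed for them alone and were not analysed here.

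The HHT group comprised 3 arrays of Kasumi-1 cells kept for 24 h in 20 nM HHT, and the vehicle group comprised 3 arrays of the same line after 24 h in vehicle. HHT is a Cephalotaxus alkaloid used against leukaemia, which inhibits protein synthesis at the ribosome. Kasumi-1 is a single myeloid leukaemia line with the RUNX1-RUNX1T1 fusion, so both groups share that background, grown in RPMI medium with serum. Total RNA was amplified from polyadenylated 3' ends, labelled with biotin and hybridised to Affymetrix arrays of 1 colour. The labels do not state that the arrays came from separate cultures, so the p-values rest on a spread between arrays that could be technical.

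The respiratory chain sits in the inner mitochondrial membrane. Complex I takes electrons from NADH and passes them to ubiquinone, complex III passes them from ubiquinol to cytochrome c, and complex IV passes them from cytochrome c to oxygen, while protons are pumped. Complex V, the ATP synthase, uses the return of these protons to make ATP. Core subunits carry out the chemistry, and accessory subunits surround them. Assembly factors insert haem, copper and iron-sulfur clusters or hold intermediates together, and are absent from the finished enzyme. A few core subunits are encoded in mitochondrial DNA and all others in the nucleus, so each complex is built from the products of both genomes. Myeloid leukaemia cells have been described as reliant on oxidative phosphorylation.

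Signals are given on the log2 scale of the MAS5 values, on which 1 unit is a doubling, and a change is the HHT mean minus the vehicle mean. The mean of all antilog signals, trimmed at both ends, was 500 on every array, so the values hold only relative amounts. Neither the RNA per cell nor the number of cells can be read from them. With that scaling, the array medians were 5.64 ± 0.124 in HHT and 5.88 ± 0.0729 in vehicle, and the hybridisation controls, which are added in fixed amounts, averaged 11.70 ± 0.0598 in HHT and 11.98 ± 0.0282 in vehicle (SD, n = 3 each). Both differences had an exact permutation p of 0.1, two-sided, the smallest that 3 against 3 arrays allow. Setting the medians equal moves the median change of all genes by 0.24 and setting the controls equal moves it by 0.28, so each direction below is read against these scalings and against quantile normalization. The titles number the vehicle arrays before the HHT arrays. The labels give no processing order, and if it followed these numbers it could not be told apart from treatment. Of 6 measured markers of the labelled myeloid line, 5 lay above the filter level, with KIT at 14.17 to 14.24 in HHT and 14.75 to 14.99 in vehicle, and CD38 was below it. Of these 5, AZU1 was dim, with a mean of 5.34 and 3.84 to 6.44 in HHT. Of the markers of other cell types, EPCAM (12.85 to 13.01 in HHT and 13.66 to 13.71 in vehicle) and CD3D (11.67 to 11.88 in HHT and 11.60 to 11.63 in vehicle) were also bright, while the other measured markers of T, B, erythroid, fibroblast and epithelial cells had means of 2.75 to 7.29. The part of any other cell type in the results was not tested.

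On the deposited scale the members moved by small amounts in both directions, and the decreases were more numerous. Changes were called with limma at a Benjamini-Hochberg adjusted p under 0.05 over all probe sets tested, and only called genes are said to have risen or fallen. Of the 96 members tested, 18 rose and 36 fell, that is 18.8% and 37.5%, whereas of all 13572 genes tested 29.6% rose and 24.2% fell. Calls in either direction took in 56.2% of members and 53.8% of all genes. The median change was -0.13 over members and 0.00 over all genes, and the members ranged from -1.40 for COX3 to 1.46 for COX18. Those were the only members called with a change of at least 1, a size that 15.5% of all genes reached with a call. HHT and vehicle arrays did not overlap for 20 members that were higher and 44 that were lower, 66.7% of them together; of all genes 33.2% and 29.0% did so, 62.2% together. This split depended on the scale: 31 members rose and 4 fell with equal array medians, 38 rose and 15 fell after quantile normalization, and 43 rose and 7 fell with equal hybridisation controls.

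**Figure D1:**
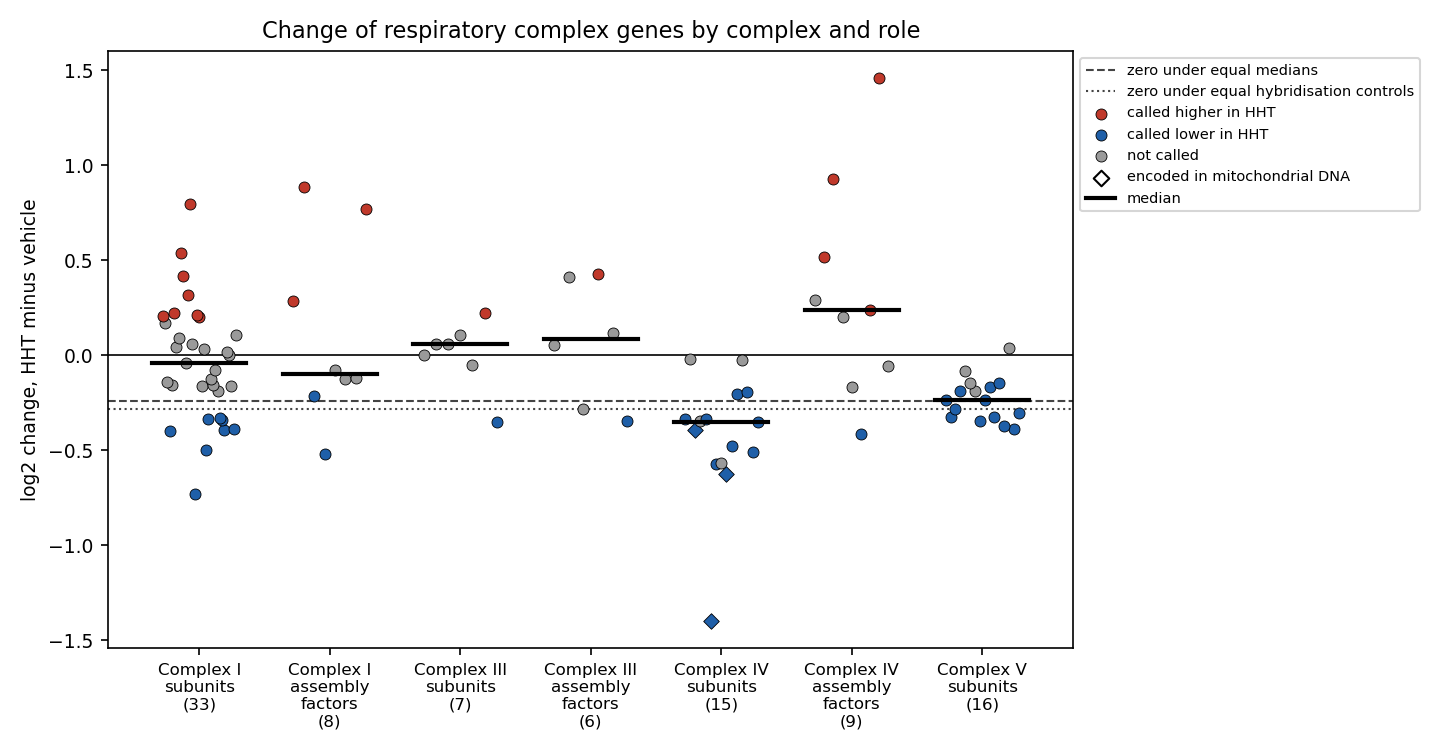
Log2 change, HHT minus vehicle, of each tested member (points) on the deposited scale, by complex and by subunit or assembly factor, with colour for the call. Complex IV and complex V subunits lie below 0 with the exception of ATP5ME at 0.04, whereas assembly factors reach from -0.52 to 1.46; medians of complexes I, IV and V move above 0 under the other 3 scalings.

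Members were read at the bright end of the arrays, where the signals of other genes were also lower in HHT. The median signal of the members was 12.95 and that of all genes tested was 9.09. A signal also depends on the probes, so it does not rank 1 member's abundance against another's. Between 13 and 14, 2 of 28 members rose and 13 fell (median -0.14), and 15.9% of 428 other genes rose and 62.1% fell (median -0.28). At 14 and above, 0 of 19 members rose and 14 fell (median -0.23), and 1.20% of 166 other genes rose and 91.0% fell (median -0.32). Across the 96 members, which share the same arrays, Pearson's r between mean signal and change was -0.331 and Spearman's rho was -0.422, given as a description. In both bands the median decrease of the members was smaller than that of other genes of the same brightness. Between 12 and 13 the order was the other way, with a median of -0.15 over 18 members and -0.04 over 976 other genes, and likewise between the lower and upper quartile of the members' signals, with -0.12 over 48 members and -0.05 over 1905 other genes.

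**Figure D2:**
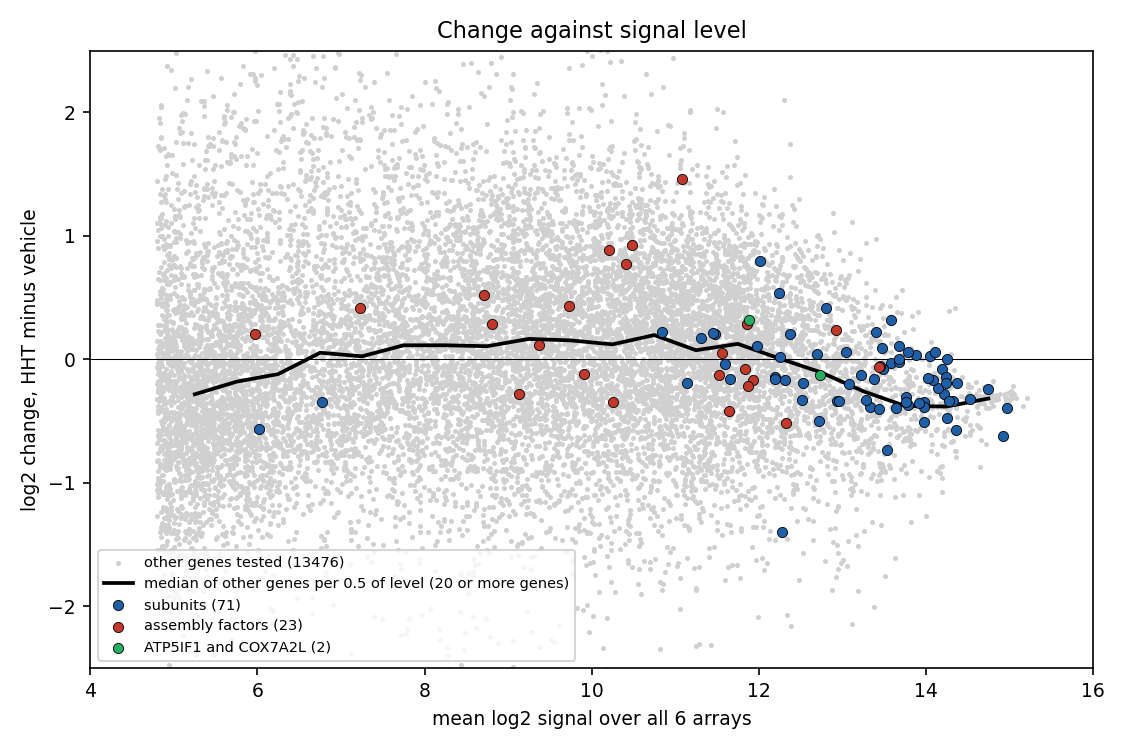
Log2 change, HHT minus vehicle, against the mean log2 signal over all 6 arrays, for subunits (71), assembly factors (23) and the other genes tested (grey), with the median of other genes along the signal as a line; the vertical axis is clipped at 2.5 either way. Most subunits sit at signals above 12, where the line bends below 0 on the deposited scale.

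Subunits were more often lower than higher on the deposited scale, and assembly factors more often higher than lower. Of 71 subunits, 9 rose and 32 fell, that is 12.7% and 45.1%, with a median of -0.16. Of 23 assembly factors, 8 rose and 4 fell, that is 34.8% and 17.4%, with a median of 0.12. Of all genes tested, 29.6% rose and 24.2% fell. The median of the assembly factors exceeded that of the subunits by 0.28 on the deposited scale and by 0.12 after quantile normalization. Equal medians and equal controls add 1 constant to each array and cannot move this difference. The median of the subunits turned positive under each of those 3 scalings (0.08, 0.12 and 0.09), and that of the assembly factors was positive under all 4. The lower and upper quartiles of the assembly factors' signals were 9.55 and 11.85, and the 4108 other genes in that range had a median change of 0.13, with 44.6% higher and 30.1% lower. For the subunits the quartiles were 12.44 and 14.04. The 888 other genes in that range had a median change of -0.21, with 22.9% higher and 53.6% lower. The medians of these other genes thus differed in the same direction as those of the 2 classes. The range of signal therefore moved with the 2 classes, and its part in their difference was not tested. Changes were also more spread among assembly factors (SD 0.488, median SE 0.0865) than among subunits (SD 0.313, median SE 0.0601).

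**Figure D3:**
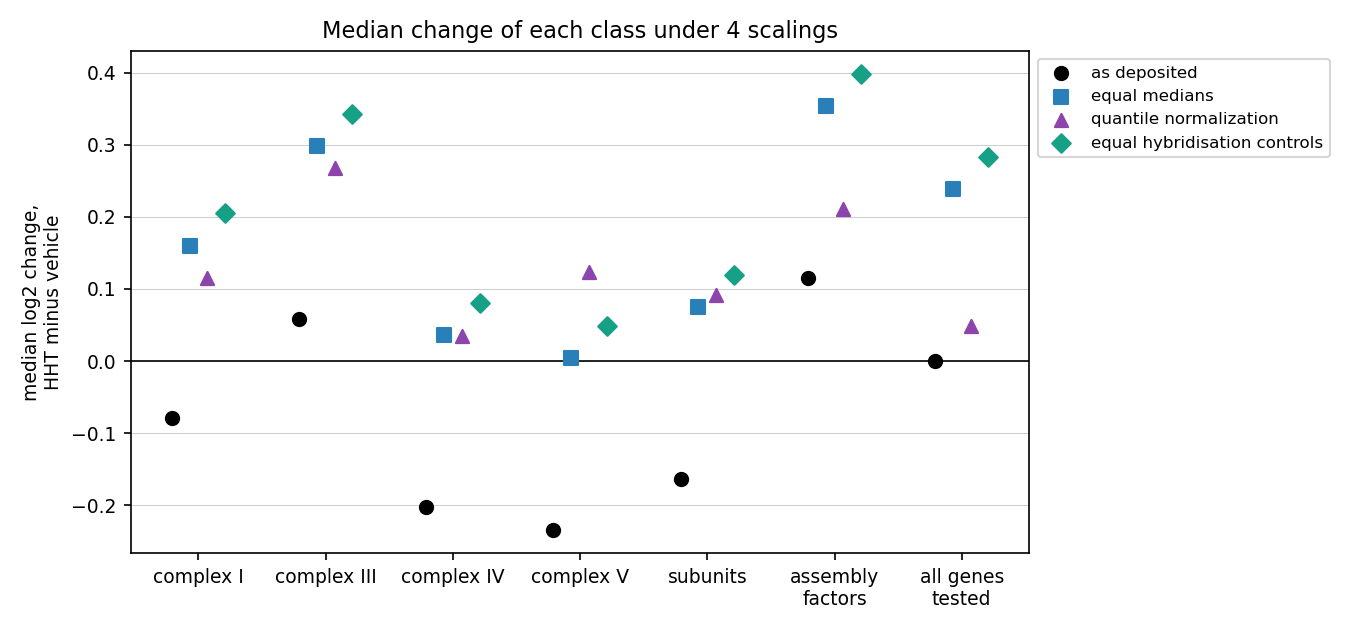
Median log2 change, HHT minus vehicle, of each complex, of subunits, of assembly factors and of all genes tested, on the deposited scale and under 3 other scalings (symbols). Assembly factors and complex III lie above 0 under all 4, while complexes I, IV and V and the subunits lie below 0 on the deposited scale and above 0 under the other 3.

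A group of 18 members was called the same way under all 4 scalings. The 14 that rose were COX18, COX15, COX19 and COX16 of complex IV assembly, NDUFAF5, NDUFAF1 and NDUFAF6 of complex I assembly, the complex I subunits NDUFS7, NDUFS4, NDUFA5, NDUFB5 and NDUFA8, CYC1 of complex III and the inhibitor ATP5IF1. The 4 that fell were COX3, COX2 and COX6C of complex IV and NDUFAB1 of complex I. By class, 7 of 23 assembly factors rose and 0 fell under all 4, and 6 of 71 subunits rose and 4 fell. Among 13557 genes tested under all 4 scalings, 27.4% rose and 12.1% fell throughout, both larger shares than among the 96 members. The share of assembly factors that rose was near that of all genes. The other members comprised 61 called under some scalings only, 11 never called and 6 called in opposite directions. The 6 that turned were COX7B and, in complex V, ATP5F1A, ATP5MC3, ATP5MG, ATP5PB and ATP5PD, called lower as deposited and higher after quantile normalization.

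**Figure D4:**
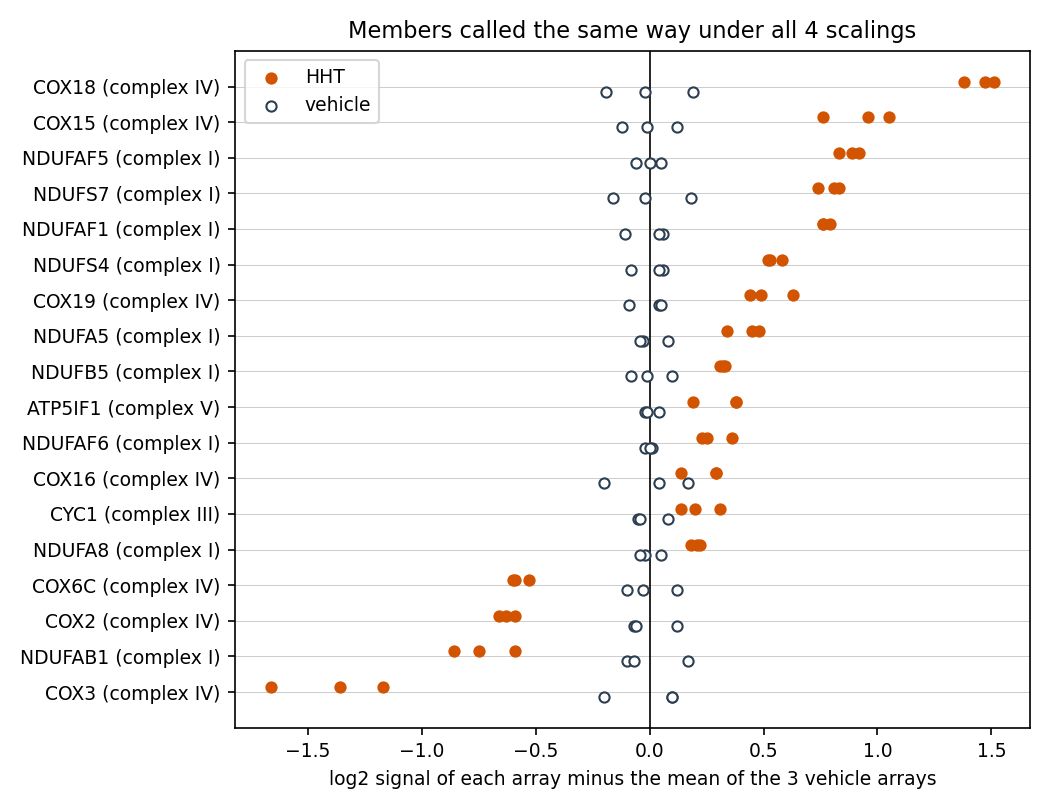
Log2 signal of each array minus the mean of the 3 vehicle arrays, for the 18 members called the same way under all 4 scalings; filled points are HHT arrays and open points are vehicle arrays. The groups do not overlap for 17 of the 18, COX16 being the exception.

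Upstream sequence is shown for 4 of these genes because they held the largest increases of complex IV assembly (COX18 and COX15) and of the subunits (NDUFS7) and the largest decrease of a nuclear gene (NDUFAB1). Each line gives the 100 bases before the first listed start, 5' to 3' on the gene's strand, from RefSeq on GRCh38.p14. Capitals mark matches, on either strand, to GCGCANGCG, the core of the motif of the nuclear respiratory factor NRF1, or to CCGGAAG, which ETS factors such as GABPA bind. The windows lie at chr4:73069717-73069816 for COX18 (minus strand), chr10:99732128-99732227 for COX15 (minus strand), chr19:1383807-1383906 for NDUFS7 (plus strand) and chr16:23596317-23596416 for NDUFAB1 (minus strand).
COX18: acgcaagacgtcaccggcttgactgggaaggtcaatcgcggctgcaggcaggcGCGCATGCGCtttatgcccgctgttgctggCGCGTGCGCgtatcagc
COX15: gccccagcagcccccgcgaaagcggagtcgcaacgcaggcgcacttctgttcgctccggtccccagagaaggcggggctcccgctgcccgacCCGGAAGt
NDUFS7: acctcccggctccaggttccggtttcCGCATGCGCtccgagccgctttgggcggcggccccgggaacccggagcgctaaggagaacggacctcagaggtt
NDUFAB1: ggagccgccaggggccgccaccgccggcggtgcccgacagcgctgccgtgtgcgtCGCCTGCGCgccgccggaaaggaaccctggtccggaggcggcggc
The NRF1 core was found in COX18 (3 matches, 2 of them overlapping), in NDUFS7 and in NDUFAB1, so that it stood before genes that rose and before a gene that fell. In COX15 the match was CCGGAAG, beginning 8 bases before the start.

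Over the 250 bases before the start, searched on both strands, the NRF1 core stood in 23 of the 81 tested members with a listed promoter (28.4%) and in 14.1% of 10923 tested genes. The share was 33.3% of 15 members that rose, 27.6% of 29 that fell and 27% of 37 that were not called, counts of 5, 8 and 10 genes that were not tested against each other. CCGGAAG stood in 25.9% of members and 17.7% of all genes, with 13.3% of the members that rose and 34.5% of those that fell. The E-box CACGTG, which MYC and its relatives bind, stood in 12.3% of members and 10.9% of all genes. AAGATGGCG, a YY1 motif, stood in 1 member (1.23%) and in 1.28% of all genes. A match describes letters in this window and not a bound site.

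Complex I subunits among the members moved both ways in equal number. Of 33 tested, 8 rose and 8 fell, with a median of -0.04, and the 1010 other genes in the middle of their signal range had a median of -0.13 with 28.9% higher and 47.2% lower. The median of complex I with its assembly factors was -0.08 as deposited and 0.12 to 0.21 under the other 3 scalings. NDUFS7, the iron-sulfur core subunit that hands electrons to ubiquinone, had signals of 12.36, 12.43 and 12.45 in HHT and 11.46, 11.60 and 11.80 in vehicle. All 3 HHT arrays were above all vehicle arrays, and NDUFS7 rose by 0.79 (SE 0.0828, adjusted p = 1.92e-05 with limma), 1.73-fold. NDUFS4, an accessory subunit of the NADH-oxidising arm that is mutated in Leigh syndrome, had 12.49, 12.50 and 12.55 in HHT and 12.03, 12.01 and 11.89 in vehicle. The groups were apart, with NDUFS4 higher by 0.54 (SE 0.0601). NDUFA5, an accessory subunit of the peripheral arm, had 12.94, 13.08 and 13.05 in HHT and 12.57, 12.56 and 12.68 in vehicle, again without overlap, and rose by 0.42.

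The remaining increases in complex I were smaller. NDUFB5 of the membrane arm rose by 0.32, with 13.74 to 13.76 in HHT and 13.35 to 13.53 in vehicle. NDUFS1, the largest core subunit and a carrier of iron-sulfur clusters, rose by 0.22 (adjusted p = 0.0248), with 10.92 to 11.01 in HHT and 10.65 to 10.79 in vehicle, a call lost without HHT replicate 2 or vehicle replicate 3. NDUFV3, NDUFA8 and NDUFA9 rose by 0.20 to 0.21, and the calls of NDUFV3 and NDUFA9 were kept in 2 and 1 of 6 fits that left out an array.

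Among the members, the decreases in complex I were led by NDUFAB1, the mitochondrial acyl carrier protein, which also serves fatty acid synthesis. Its signals were 13.15, 13.04 and 13.31 in HHT and 14.07, 13.80 and 13.83 in vehicle. Every HHT array was below every vehicle array, and NDUFAB1 fell by 0.73 (SE 0.0840, adjusted p = 3.86e-05 with limma), a 1.66-fold lower signal. NDUFB8, an accessory subunit of the membrane arm whose protein is lost when complex I is unassembled, had 12.46, 12.45 and 12.49 in HHT and 13.04, 13.02 and 12.84 in vehicle, and it fell by 0.50 without overlap. NDUFB2 fell by 0.40, and so did NDUFS6, a zinc-binding subunit. NDUFA11, NDUFB6 and NDUFC1 fell by 0.33 to 0.39.

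The flavin-containing end of complex I, where NADH is oxidised, was uneven. NDUFV2, a core iron-sulfur subunit there, had 12.78, 12.81 and 12.79 in HHT and 13.14, 13.18 and 13.07 in vehicle, and fell by 0.34 as deposited. NDUFV1, which binds the flavin and NADH, differed by -0.16 (adjusted p = 0.0627) and NDUFS3 of the connecting arm by 0.05 (adjusted p = 0.496), neither of them called. Thus of the 5 tested core subunits of complex I among the members, 2 rose (NDUFS7 and NDUFS1), 1 fell and 2 were not called. The core subunits ND2, ND4 and ND6, encoded in mitochondrial DNA and outside the members, all fell, by 0.63 to 1.31, as given below.

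Among the 8 complex I assembly factors 3 rose and 2 fell, that is 37.5% and 25%, beside 29.6% and 24.2% of all genes. NDUFAF5, which hydroxylates an arginine of NDUFS7 during assembly, had 10.69, 10.60 and 10.66 in HHT and 9.82, 9.77 and 9.71 in vehicle. NDUFAF1, a chaperone of the membrane arm, had 10.79, 10.79 and 10.82 in HHT and 10.09, 9.92 and 10.07 in vehicle. Both were higher on all 3 HHT arrays, NDUFAF5 by 0.89 (SE 0.0765, adjusted p = 4.94e-06 with limma) and NDUFAF1 by 0.77 (SE 0.0765, adjusted p = 1.34e-05). NDUFAF6, needed early in assembly, rose by 0.28. NDUFAF8, a partner of NDUFAF5, moved the other way, with 12.02, 12.07 and 12.13 in HHT and 12.59, 12.58 and 12.60 in vehicle. The vehicle arrays were all higher, and NDUFAF8 fell by 0.52 as deposited. NDUFAF4 fell by 0.21 in its brightest probe set, while a second probe set rose by 0.58, so its direction was not settled.

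Complex III was the complex with the fewest calls on the deposited scale. Of its 13 tested members, 2 rose and 2 fell (30.8% called, beside 53.8% of all genes), with a median of 0.06 as deposited and 0.27 to 0.34 under the other 3 scalings. With equal medians 7 rose and 0 fell, and with equal controls 10 rose and 0 fell. In complex V, 2 and 3 members rose under these scalings. When each gene was taken as the mean of its probe sets the median was -0.05. CYC1, cytochrome c1 and a core subunit, had 13.44, 13.50 and 13.61 in HHT and 13.38, 13.25 and 13.26 in vehicle. The groups were close without overlapping, and CYC1 rose by 0.22 (SE 0.0607, adjusted p = 0.0121 with limma), a call that was lost without HHT replicate 3. UQCR11, a small accessory subunit, had 13.48, 13.49 and 13.79 in HHT and 13.98, 13.80 and 14.02 in vehicle, and fell by 0.35. UQCRC1 and UQCRC2, the large subunits of the matrix side, differed by 0.10 and 0.06, and UQCRB, UQCRQ and UQCR10 by 0.06, -0.05 and 0.00, none of them called. The 190 other genes in the middle of the signal range of the 7 subunits had a median of -0.28, with 16.3% higher and 62.6% lower.

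Of the 6 complex III assembly factors, UQCC1 rose and UQCC3 fell, 16.7% each way, beside 29.6% and 24.2% of all genes. Both act around cytochrome b, the subunit of complex III encoded in mitochondrial DNA. UQCC1 had 9.97, 9.90 and 9.97 in HHT and 9.43, 9.84 and 9.29 in vehicle, a rise of 0.43 that was kept in 3 of 6 fits without 1 array, while a second probe set rose by 0.56 and the remaining one fell by 1.24. UQCC3 had 9.94, 10.10 and 10.21 in HHT and 10.46, 10.42 and 10.42 in vehicle, a fall of 0.35. UQCC2, UQCC4, UQCC5 and UQCC6 differed by -0.28 to 0.41 and were not called.

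Complex IV, cytochrome c oxidase, held both the largest decrease and the largest increase among the members. Of its 15 tested subunits 0 rose and 11 fell, with a median of -0.35 on the deposited scale. The 282 other genes in the middle of their signal range had a median of -0.38, and 74.1% of them fell. The median of the whole complex was -0.20 as deposited and 0.04, 0.04 and 0.08 with equal medians, quantile normalization and equal controls.

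The 3 core subunits of complex IV encoded in mitochondrial DNA, which hold its haem and copper centres (COX1 and COX2) or stabilise them (COX3), all fell. COX3 had 11.81, 11.62 and 11.32 in HHT and 13.08, 13.08 and 12.78 in vehicle. It fell by 1.40 (SE 0.120, adjusted p = 4.64e-06 with limma), a 2.64-fold lower signal, from a single probe set of the kind that can bind related sequences. COX2, the copper subunit that accepts electrons from cytochrome c and not the cyclooxygenase of the same name, had 14.61, 14.58 and 14.65 in HHT and 15.36, 15.17 and 15.18 in vehicle. HHT arrays were lower throughout, and COX2 fell by 0.62 (SE 0.0580, adjusted p = 8.22e-06). COX1, the catalytic subunit, had 14.74, 14.77 and 14.83 in HHT and 15.23, 15.14 and 15.16 in vehicle. It fell by 0.39 as deposited, and its change of -0.15, -0.07 and -0.11 under the other 3 scalings was not called.

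Other protein genes of mitochondrial DNA were examined after these values were seen. All 10 tested probe sets of COX1, COX2, COX3 and of 4 further genes (ATP6 of complex V and ND2, ND4 and ND6 of complex I) fell, by 0.39 to 1.87. Of all genes tested 24.2% fell. Of the other genes with signals between 13 and 14, 62.1% fell, and of those at 14 and above 91.0% fell. ND2, a membrane-arm subunit, had 13.14, 13.46 and 13.51 in HHT and 14.79, 14.51 and 14.61 in vehicle, a fall of 1.27. ATP6, which forms the proton channel of the synthase, fell by 0.91 in its brighter probe set, and ND6, the only 1 of these encoded on the light strand, by 1.31. The sign was negative under all 4 scalings for all 10, although COX1 was called only on the deposited scale.

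Nuclear subunits of complex IV fell in 8 of 12 cases (66.7%) as deposited, with a median of -0.34. Of all genes tested 24.2% fell, and of the other genes in the middle of the signal range of complex IV subunits 74.1% fell. COX6C, an accessory subunit, had 14.05, 14.06 and 14.12 in HHT and 14.77, 14.55 and 14.62 in vehicle. It fell by 0.57 (SE 0.0606, adjusted p = 2.19e-05 with limma) and was the only nuclear subunit of this complex called lower under all 4 scalings. COX7A2 and COX6A1, the widely expressed isoforms, fell by 0.51 and 0.48. COX4I1, which binds ATP and regulates the enzyme, had 13.71, 13.74 and 13.79 in HHT and 14.13, 14.07 and 14.08 in vehicle, a fall of 0.35 without overlap as deposited. COX5A fell by 0.34, COX7C by 0.34, COX6B1 by 0.20 (kept in 2 of 6 fits that left out an array) and COX7B by 0.19, whereas COX5B and COX8A differed by -0.03 and -0.02 and were not called.

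Isoform pairs were compared within each array, as the change in their difference. Of 9 pairs, 6 had both genes tested, and p-values were exact, two-sided and adjusted over the 6. COX7A2 minus COX7A2L, the supercomplex factor, was 1.05 ± 0.0805 in HHT and 1.43 ± 0.0973 in vehicle (SD, n = 3 each), a change of -0.38 (exact p = 0.1, the smallest possible, adjusted 0.15). COX7A2L alone differed by -0.12 and was not called. COX4I1 minus COX4I2, the isoform of lung and hypoxia, changed by -0.01 (exact p = 1), and COX6A1 minus COX6A2, the heart and muscle isoform, by 0.09 (exact p = 0.9). COX4I2 and COX6A2 had signals of 5.33 to 7.13 with SDs up to 0.908, so a difference of the size of the other pairs was not detectable for them.

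Assembly factors of complex IV were more often higher than lower. Of 9 tested, 4 rose, all under the 4 scalings, and 1 fell, with a median of 0.24 as deposited. That was 44.4% higher and 11.1% lower, beside 29.6% and 24.2% of all genes, and 27.4% of all genes rose under the 4 scalings. With so few members these shares describe only the genes named next. COX18, the membrane insertase that carries the tail of COX2 across the inner membrane, had 11.82, 11.73 and 11.86 in HHT and 10.16, 10.54 and 10.33 in vehicle. All HHT arrays lay more than 1 unit above all vehicle arrays. COX18 rose by 1.46 (SE 0.0945, adjusted p = 7.34e-07 with limma), 2.75-fold, and by 1.40 to 1.74 across the scalings. COX15, the enzyme that makes haem A for COX1, had 11.07, 10.98 and 10.78 in HHT and 10.01, 9.90 and 10.14 in vehicle, without overlap, and rose by 0.93 (SE 0.0959, adjusted p = 1.80e-05), 1.90-fold. COX10, which makes the haem O that COX15 uses, had 8.84, 9.01 and 9.0 in HHT and 8.68, 8.77 and 8.54 in vehicle. The groups did not overlap, but the difference of 0.29 was not called (adjusted p = 0.0595).

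The other assembly factors of complex IV, which handle copper or newly made core subunits, were mixed. COX19, a soluble protein of the intermembrane space, had 9.08, 8.94 and 8.89 in HHT and 8.49, 8.36 and 8.50 in vehicle, and rose by 0.52. COX16, which acts on the copper site of COX2, had 12.95, 13.10 and 13.10 in HHT and 12.61, 12.85 and 12.98 in vehicle. Its groups overlapped, and the rise of 0.24 (adjusted p = 0.0483) was kept in only 2 of 6 fits that left out an array. COX20, a chaperone of newly made COX2, had 11.37, 11.46 and 11.50 in HHT and 11.84, 11.80 and 11.93 in vehicle. It was the 1 factor of this set that fell, by 0.42 as deposited, with no call under equal medians or equal controls. COX11, COX14 and COX17 differed by -0.06, -0.17 and 0.20 and were not called. COX17 was dim, with a mean of 5.97 and an SE of 0.339, so a change as small as that of COX16 or COX20 was not detectable.

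The members of complex V showed small changes, nearly all of 1 sign on the deposited scale. Of the 16 tested subunits among them 0 rose and 12 fell, with a median of -0.24 and a range of -0.39 to 0.04 as deposited. Their changes had an SD of 0.116, against a median SE of 0.0549, the narrowest spread of the sets examined. The 74 other genes in the middle of their signal range had a median of -0.40, and 86.5% of them fell. None of these 16 subunits was called lower under all 4 scalings. The median of the complex V members was 0.00 with equal medians, 0.05 with equal controls and 0.12 after quantile normalization.

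In the catalytic head of complex V, ATP5F1B, the beta subunit that makes ATP, had 13.77, 13.82 and 13.84 in HHT and 14.24, 14.09 and 14.14 in vehicle. It fell by 0.35 (SE 0.0533, adjusted p = 0.000311 with limma), and its change under the other 3 scalings was -0.11, 0.03 and -0.06, none called. ATP5F1A, the alpha subunit, had 14.66, 14.60 and 14.61 in HHT and 14.99, 14.81 and 14.79 in vehicle. It fell by 0.24 as deposited and was called higher, at 0.12, after quantile normalization. The stalk subunits ATP5F1C and ATP5F1E fell by 0.29 and 0.32, and ATP5F1D differed by -0.19 (adjusted p = 0.108). ATP5MK and ATP5PF, small subunits of the membrane part and the peripheral stalk, had the largest decreases among the members of the complex, 0.39 and 0.37.

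The rotor ring of complex V is made of subunit c, which 3 genes encode as precursors with the same mature protein. ATP5MC1 had 12.31, 12.31 and 12.44 in HHT and 12.73, 12.59 and 12.72 in vehicle, and fell by 0.33. ATP5MC3 had 13.99, 14.01 and 14.09 in HHT and 14.36, 14.20 and 14.24 in vehicle, and fell by 0.23. ATP5MC2 had 14.13, 14.11 and 14.23 in HHT and 14.29, 14.26 and 14.16 in vehicle, with overlap and no call (-0.08). Within arrays, ATP5MC1 minus ATP5MC2 changed by -0.25, ATP5MC1 minus ATP5MC3 by -0.09 and ATP5MC2 minus ATP5MC3 by 0.15, each with an exact p of 0.1 and an adjusted p of 0.15.

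ATP5IF1, the inhibitor that stops the synthase from running backwards and splitting ATP, was the only complex V member that rose. Its brightest probe set had 11.92, 12.11 and 12.11 in HHT and 11.71, 11.77 and 11.72 in vehicle, with no overlap and a change of 0.31 (SE 0.0678, adjusted p = 0.00301 with limma). A second probe set differed by -0.02 and was not called, and the dimmest one fell by 0.98. The mean of the 3 changed by -0.23.

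Probe sets of 1 gene did not always move alike. Of 51 members with more than 1 probe set tested, 15 had the same call in all. In 20, the chosen probe set was called and another was not, and in 13 the reverse held. In 4 (ATP5MJ, NDUFAF4, UQCC1 and, also counted among the 20, ATP5IF1) another probe set was called in the opposite direction. NDUFA7 differed by -0.19 in the chosen probe set, uncalled, while a dimmer one had 8.90, 9.07 and 9.09 in HHT and 7.21, 6.36 and 6.57 in vehicle, a rise of 2.31. NDUFA6, an accessory subunit bound to NDUFAB1, differed by -0.16, uncalled, while another probe set rose by 0.90. ATP5PO, COX5B and COX11 each had a dimmer probe set that fell by 1.03 to 1.17 beside an uncalled one. The sources used here do not say which transcript end each probe set reads.

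**Figure D5:**
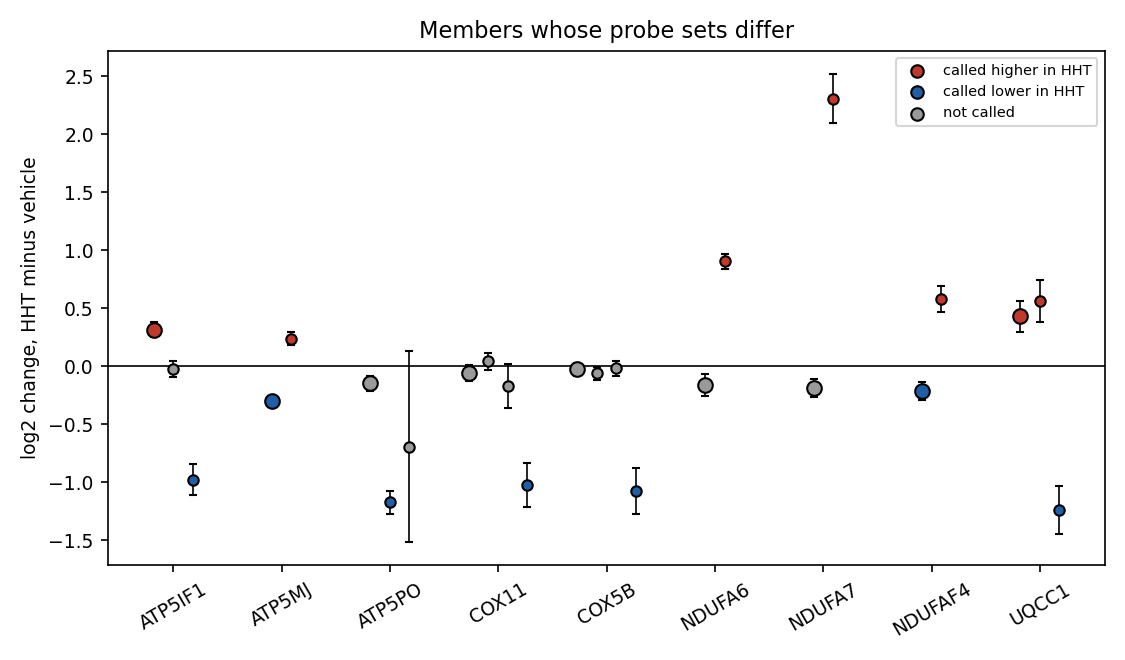
Log2 change, HHT minus vehicle, of every tested probe set of 9 of the 51 members with more than 1 probe set tested. The 9 had calls in both directions, or a large called change where the chosen probe set was not called. Further members also had probe sets with unlike calls. Larger points are the probe set that stands for the gene, bars are the SE, and colour is the call. ATP5IF1, ATP5MJ, NDUFAF4 and UQCC1 have probe sets called on both sides of 0, and NDUFA7 spans -0.19 to 2.31.

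Other genes of the chain and its control were read from a list of 59, of which 57 were tested, all but PPARGC1A and SDHB. Of these, 15 rose and 27 fell, with a median of -0.16. The share that rose, 26.3%, was near the 29.6% of all genes, and the share that fell was 47.4%, beside 24.2%. Under all 4 scalings 14 rose and 10 fell, beside 27.4% and 12.1% of all genes. The assembly factors of complex V, which bear other names than its subunits, rose in 4 of 5 cases, each under all 4 scalings. TMEM242 rose by 1.14, ATPAF1, the chaperone of the beta subunit, by 1.02, ATPAF2, the chaperone of the alpha subunit, by 0.77, and FMC1 by 0.54, whereas TMEM70 differed by -0.12. ATPAF1 had 11.03, 10.98 and 10.93 in HHT and 9.80, 10.09 and 9.98 in vehicle, without overlap. Beyond the COX genes, 4 of 17 further complex IV assembly factors rose and 9 fell, among them SCO2, a copper chaperone of COX2, which fell by 0.93, and SURF1, mutated in Leigh syndrome, which rose by 0.46. The difference between these and the COX-named factors was not tested.

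Of 7 tested nuclear regulators of these genes, 1 rose and 4 fell as deposited, beside 29.6% and 24.2% of all genes. Under all 4 scalings 1 rose and 3 fell, beside 27.4% and 12.1% of all genes. PPRC1 and PPARGC1B, coactivators of mitochondrial biogenesis, fell by 0.95 and 0.92, and the nuclear receptor ESRRA by 0.72, each under all 4 scalings. GABPA, the ETS factor, rose by 0.46, and NRF1 differed by 0.23 and was not called (adjusted p = 0.0792). LRPPRC, which stabilises mitochondrial messenger RNA, had 13.22, 13.22 and 13.24 in HHT and 14.10, 14.01 and 13.89 in vehicle, and fell by 0.77. TACO1, the translational activator of COX1, rose by 0.69. All 6 tested genes of mitochondrial transcription were called as deposited, beside 53.8% of all genes. MTERF1 and TEFM rose by 0.65 and 0.62, and TFAM, TFB1M, TFB2M and POLRMT fell by 0.25 to 0.44. Under all 4 scalings 2 rose and 0 fell. CYCS, cytochrome c itself, fell by 0.48 as deposited, and the change of -0.10 to -0.25 under the other 3 scalings was smaller.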

How the data were processed

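The values are the log2 signals of the deposited series table, 1 per probe set and array, made with MAS5 per the submitters' processing notes, which give no version. Per the labels' protocols, total RNA was purified and amplified with a 3' in vitro transcription kit. No pseudocount was added. Gene names came from the platform annotation, with symbols updated through RefSeq; 41091 had 1 gene, 1801 several and 11721 none listed, and 62 control probe sets were left out. Where a gene had several single-gene probe sets, the brightest over all 6 arrays stood for it.

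The 3 HHT and 3 vehicle arrays were compared by limma 3.58.1 (R 4.3.3), using lmFit and eBayes with a variance trend, and p-values were adjusted over 32768 probe sets by Benjamini-Hochberg. The fit was tested on simulated data. Errors are SE for changes and SD over 3 arrays for means. The number of arrays limits the precision. Complexes and roles were assigned by hand. Members, lists and tests were chosen with earlier results of these data known.

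The named genes were, per complex, the 3 subunits with the largest called increase and decrease, the 2 such assembly factors, the catalytic core, ATP5IF1, COX7A2L, the isoform pairs, the other pathway genes with the largest calls, and members whose calls change with a scaling. Others were named after their values were seen. Alternatives were equal array medians, quantile normalization, equal hybridisation controls, no filter, a 60% filter, no variance trend, the replicate number as a block, 64 added to the signal, averaging all probe sets of a gene, no _x_at probe sets, and leaving out each array. Promoters came from RefSeq (GRCh38.p14) and were searched with Python 3.11.15.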

Additional observations from a re-analysis of the deposited data

How the results depend on the processing

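The scale decided the direction of most sets. With equal medians, quantile normalization and equal hybridisation controls in turn, the members called higher were 31, 38 and 43 and lower 4, 15 and 7, and their median change was 0.106, 0.101 and 0.151, against -0.133 as deposited. Complex I had 17, 16 and 22 higher, 1, 7 and 3 lower and medians of 0.160, 0.115 and 0.205. Complex III had 7, 5 and 10 higher, 0, 1 and 0 lower and medians of 0.298, 0.268 and 0.343. Complex IV had 5, 8 and 8 higher, 3, 5 and 4 lower and medians of 0.036, 0.035 and 0.081. Complex V had 2, 9 and 3 higher, 0, 2 and 0 lower and medians of 0.004, 0.123 and 0.049. Subunits had 19, 29 and 28 higher, 4, 9 and 6 lower and medians of 0.075, 0.091 and 0.120. Assembly factors had 11, 8 and 14 higher, 0, 6 and 1 lower and medians of 0.354, 0.211 and 0.399. Other pathway genes had 10 lower with equal medians, and 25 higher and 13 lower with equal controls. Over all genes, 1718 were lower with equal medians and 1741 with equal controls. After quantile normalization ATP5F1A changed by 0.12 and ATP5MC3 by 0.14. The cause was not tested.

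With no variance trend the members called higher were 11 in all, 7 in complex I, 0 in complex III and 4 among subunits, while 1 fell in complex III and 6 in complex V. With all probe sets of a gene averaged, complexes III, IV and V had medians of -0.052, -0.304 and -0.178, 0 of complex V rose, 7 assembly factors fell, ATP5IF1 changed by -0.23 and NDUFAF4 by 0.18. Leaving out 1 array gave 13 to 17 members higher and 31 to 38 lower, with medians of -0.154 to -0.102. The median of complex I was -0.097 to -0.032, and 0 to 2 of complex III rose: 0 without HHT replicate 3 and 1 without vehicle replicate 1 or vehicle replicate 3. Of the 54 calls, 42 were kept in all 6 such fits and 11 under all 16 alternatives (COX15, COX18, COX19, NDUFAF1, NDUFAF5, NDUFAF6, NDUFB5 and NDUFS4 higher, COX2, COX6C and NDUFAB1 lower). Of the others, ATP5PD and NDUFA9 were kept in 1 of the 6 fits, COX6B1, COX16, NDUFAF4 and NDUFV3 in 2, UQCC1 in 3, ATP5PB and NDUFS1 in 4, and ATP5MG, COX7B (both lost without HHT replicate 2) and CYC1 in 5.

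Same-numbered HHT and vehicle arrays deviated from their group means with correlations of 0.0655, -0.0141 and 0.0491, so the numbers were not taken to pair them. With the replicate number as a block, 18 members were higher and 35 lower, with a median of -0.133. Without _x_at probe sets COX3 had no value.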

Other observations

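The 4 long non-coding RNA genes whose symbols match the members' names were all lower in HHT on average, and none was called. NDUFB2-AS1 had 6.63, 5.89 and 6.59 in HHT and 6.99, 7.14 and 6.98 in vehicle, a difference of -0.67 (adjusted p = 0.0583 with limma). NDUFV1-DT, a divergent transcript beside a complex I core gene, had 6.74, 6.59 and 6.24 in HHT and 6.85, 7.18 and 7.39 in vehicle, a difference of -0.61 (adjusted p = 0.0598). The groups did not overlap in either. COX10-DT differed by -0.33 and NDUFV2-AS1 by -0.11, with overlapping groups.

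The 5 members below the filter were read near the lower end of the arrays and were not tested. COX8C, an isoform reported from testis, had 5.32, 4.85 and 4.59 in HHT and 1.31, 2.39 and 4.22 in vehicle, all HHT arrays being above all vehicle arrays. COX7B2, another isoform of that kind, had 4.5, 3.83 and 2.88 in HHT and 5.97, 5.01 and 4.12 in vehicle, with overlap. COX7A1, the heart and muscle isoform, had 1.31 to 1.75 in HHT and 1.09 to 1.95 in vehicle. ATP5MF, a complex V subunit, had 3.01 to 4.61 in HHT and 2.79 to 4.07 in vehicle, from the 1 probe set listed for it alone.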
